A study of Mus musculus with 2 samples.

Results

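Semaphorins, plexins, neuropilins, Slits, Robos, ephrins and Eph receptors are families of guidance ligands and receptors. All 60 rows of these families were taken by gene symbol from a table of 23276 genes, whatever their values, and 41 of them averaged at least 1 FPKM across the KO and WT libraries (FPKM counts mapped fragments scaled to transcript length and library size). The samples were heart ventricles of E12.5 mouse embryos, homozygous for a knock-out of the long non-coding RNA gene Fendrr made by homologous recombination (KO), or wild type (WT), on a mixed C57BL/6 x 129SV background. All embryos came from tetraploid complementation, where embryonic stem cells form the embryo itself beside tetraploid host cells, and 4 ventricles were pooled into 1 library of ribosomal RNA-depleted total RNA per genotype. How many stem cell clones were used is not given in the sources used here. The KO and WT libraries were sequenced on separate runs with different base calling, so genotype and run cannot be told apart, and no value below has a replicate check or a test.

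These families carry short-range and secreted cues that attract or repel cells and axons. Secreted class 3 semaphorins are mostly bound by neuropilins, which signal through plexins, while membrane semaphorins bind plexins directly. Slits signal through Robos, and membrane-bound ephrins signal through Eph receptors on the neighbouring cell and back into their own cell. In the developing heart they are known from the outflow tract, the valves, the coronary vessels and cardiac innervation.

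No row carried the name Fendrr, and under its older symbol 1110050K14Rik the table gave 0 for KO and WT alike, so the genotype labels could not be checked on the targeted gene. The ventricular label was checked by the light chain gene Myl2, at 9478 FPKM in KO and 9103 FPKM in WT. Of 6 lung and foregut genes, Sftpc, Foxa2 and Shh were listed at 0 in both. Nkx2-1, Epcam and Cdh1 had low values above 0 in both. All 6 summed to 0.228 FPKM in KO and 0.194 FPKM in WT. Absolute depth is unknown. Low values put the KO library at 1.26 times the depth of the WT library, if FPKM was scaled to all mapped fragments. The median log2 ratio of KO to WT was -0.11 over the 11349 genes that averaged at least 1 FPKM, on the log2(FPKM + 1) scale used throughout, which understates the differences of low genes. Log2 ratios are therefore also given relative to that median.

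Most guidance genes had similar levels in KO and WT ventricles. At least 1.5-fold higher in KO was 1 of 41, the secreted semaphorin gene Sema3b, against 1.54% of all genes, and at least 1.5-fold lower was 1 of 41, the ephrin gene Efna2, against 3.6% of all genes. In either direction this is 4.88% of the 41, near the 5.14% of all genes. At the 2-fold limit there were 0 of 41 in either direction, against 0.467% of all genes higher and 0.388% lower. With the median of all genes brought to 0 the 1.5-fold split became 1 higher and 0 lower among the 41, and 303 higher and 192 lower among all genes, in place of 175 and 408.

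The 41 genes lay above the centre of the transcriptome more often than below it. In KO 31 of 41 (75.6%) were above the median log2 ratio of all genes, against 50% of all genes by definition, and their own median was 0.14 above it. On the deposited scale 22 of 41 had a higher value in KO than in WT, against 33% of all genes. Above the 95th percentile of all log2 ratios (0.36) were 7 of 41, against 5% of all genes, and below the 5th percentile (-0.53) was 1 of 41, Efna2, against 5% of all genes. By role, genes above the median of all genes were 4 of 5 class 3 semaphorins, 4 of 6 membrane semaphorins, 2 of 2 neuropilins, 6 of 8 plexins, 2 of 2 Slits, 3 of 3 Robos, 1 of 4 ephrin-A ligands, 2 of 3 ephrin-B ligands, 4 of 5 EphA receptors and 3 of 3 EphB receptors. The 7 above the 95th percentile were Sema3b, Efnb2, Nrp2, Sema5a, Sema6a, Sema3d and, just past the limit, Plxna4, and this percentile limit was chosen after their values were seen. The count above it was 4 with quantile normalization and 2 of the 18 guidance genes that averaged at least 5 FPKM.

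Marker lists of cell types differed between the libraries to unlike degrees, with sum ratios of KO to WT of 1.02 for cardiomyocyte and 1.04 for endothelial genes. The marker list for cushion mesenchyme and fibroblasts had 8 of 9 genes above the all-gene median and summed to 639 FPKM in KO and 523 FPKM in WT. Of 10 endothelial and endocardial genes, 9 were above it, with sums of 252 FPKM in KO and 243 FPKM in WT. Leukocyte genes, of which 5 of the 6 averaging at least 1 FPKM were above the median, summed to 25.9 FPKM in KO and 14.1 FPKM in WT. Liver and yolk sac genes summed to 20.7 FPKM in KO and 0.695 FPKM in WT, with Alb listed at 0 in both, and most of the KO sum was Afp, at 16.6 FPKM in KO and 0.110 FPKM in WT. Cardiomyocyte genes, 5 of 9 above the median, summed to 20791 FPKM in KO and 20395 FPKM in WT. Epicardial genes, 4 of 7 above it, summed to 89.0 FPKM in KO and 79.6 FPKM in WT, and erythroid genes, 4 of 7 above it, to 5481 FPKM in KO and 4864 FPKM in WT. Smooth muscle and pericyte genes had the lower sum in KO, at 671 FPKM against 751 FPKM in WT, with 4 of 6 above the median. Neural crest and nerve genes summed to 5.16 FPKM in KO and 4.94 FPKM in WT. Of the 2 averaging at least 1 FPKM, 1 was above the median. The part of these cell types in the values of the guidance genes was not tested. In such bulk samples more cells of a type and more RNA per cell cannot be told apart.

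**Figure D1:**
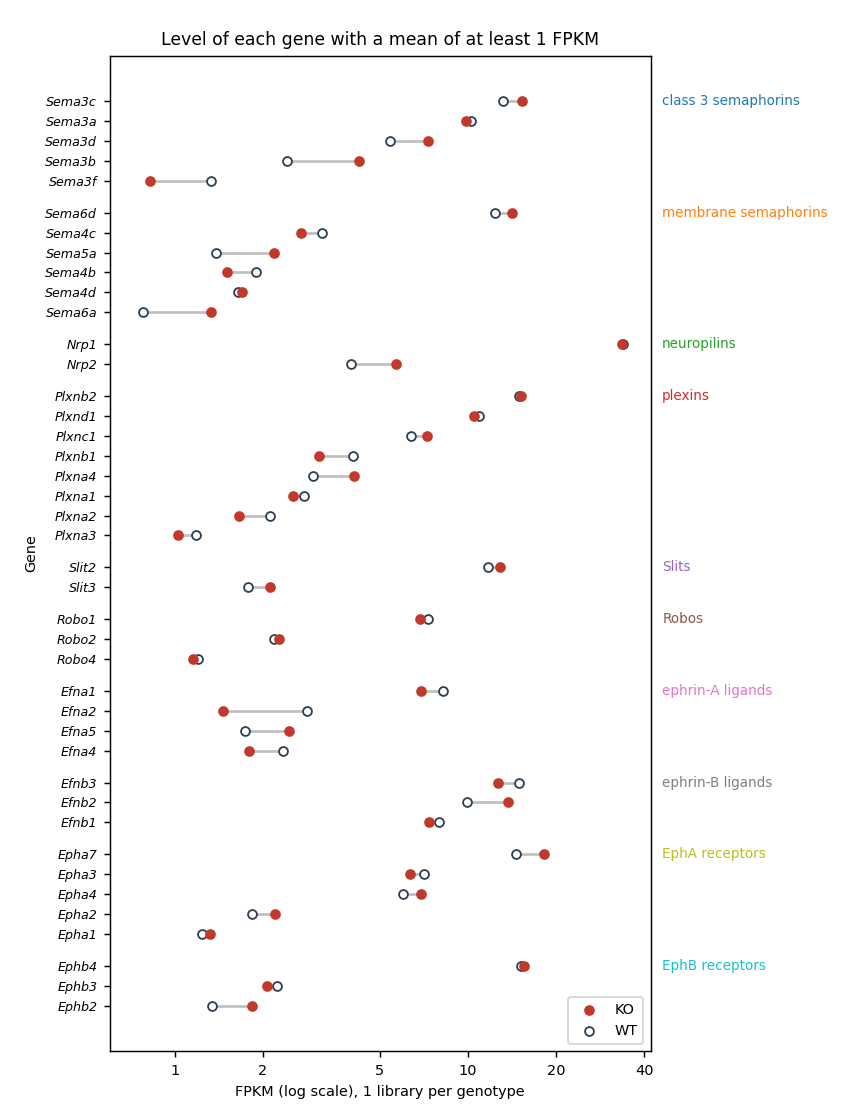
FPKM of the 41 guidance genes that averaged at least 1 FPKM, on a log axis, with 1 filled point for the KO library and 1 open point for the WT library per gene, grouped by role. Nrp1 has the highest level, near 34 FPKM in both, and the widest gaps between the libraries are those of Efna2, Sema3b and Sema6a.

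Class 3 semaphorins are secreted ligands. Sema3c, known from outflow tract septation, was the most abundant of the 7, at 15.2 FPKM in KO and 13.2 FPKM in WT. Sema3a, a growth cone repellent that shapes the sympathetic innervation of the heart, was at 9.82 FPKM in KO and 10.3 FPKM in WT. Both were within 1.5-fold of their WT level, and relative to the median of all genes Sema3c was at 0.30 and Sema3a at 0.053.

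Sema3d, a repellent of endothelial cells known from pulmonary vein patterning, was at 7.33 FPKM in KO and 5.44 FPKM in WT, a log2 ratio of 0.37. Sema3b, a repellent that acts through neuropilins, was at 4.23 FPKM in KO and 2.40 FPKM in WT, a ratio of 1.76 in FPKM and a log2 ratio of 0.62, the highest of the 41. Sema3f, a ligand that prefers Nrp2, was at 0.824 FPKM in KO and 1.33 FPKM in WT, a log2 ratio of -0.35, or -0.63 with a pseudocount of 0.1. Sema3b and Sema3f thus lay on opposite sides, although both are on chromosome 9 with 3 coding genes between them (Gnai2, Slc38a3 and Gnat1) in the RefSeq annotation of GRCm38.p6. Sema3g was at 0.511 FPKM in KO and 0.580 FPKM in WT, and Sema3e, the ligand of Plxnd1, at 0.505 and 0.546 FPKM in KO and WT.

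All 7 together summed to 38.5 FPKM in KO and 33.8 FPKM in WT, a ratio of 1.14. The order of levels was the same in both libraries. Of the sum, Sema3b made up 11.00% in KO and 7.12% in WT, and Sema3a 25.5% in KO and 30.4% in WT.

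The membrane semaphorins of classes 4 to 7 were led by Sema6d, which in chick acts with Plxna1 in the ventricular wall, at 14.2 FPKM in KO and 12.4 FPKM in WT. It made up 56.7% of their sum in KO and 54.6% in WT. Sema5a, which carries thrombospondin repeats, was at 2.18 FPKM in KO and 1.39 FPKM in WT, a log2 ratio of 0.41. Sema6a, a ligand of Plxna2 and Plxna4, was at 1.33 FPKM in KO and 0.776 FPKM in WT, a log2 ratio of 0.39 and a plain FPKM ratio of 1.72. With a pseudocount of 0.1 in place of 1, Sema5a and Sema6a were past 1.5-fold as well, with log2 ratios of 0.62 and 0.71.

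The class 4 members stood nearer to WT or below it. Sema4c, a ligand of Plxnb2, was at 2.68 FPKM in KO and 3.17 FPKM in WT. Sema4b was at 1.51 FPKM in KO and 1.90 FPKM in WT, and Sema4d, the ligand of Plxnb1, at 1.69 FPKM in KO and 1.64 FPKM in WT. In KO the order after Sema6d and Sema4c was Sema5a, Sema4d, Sema4b, Sema6a, and in WT it was Sema4b, Sema4d, Sema5a, Sema6a.

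The 7 other membrane semaphorins had means below 1 FPKM. Sema6c was at 0.406 FPKM in KO and 0.484 FPKM in WT, and Sema4g at 0.339 FPKM in KO and 0.266 FPKM in WT. For 69.3% of 2213 low genes the FPKM ratio, divided by the depth step of 0.796, matched a quotient of whole numbers up to 10, taken as reads. The 9 guidance genes below 0.3 FPKM with a value in both libraries matched quotients of whole numbers up to 20 within 0.1%. In lowest terms these were 9 KO reads for 4 WT reads of Sema7a, the ligand of Plxnc1, 12 for 11 of Sema6b, 3 for 4 of Sema5b, 4 for 5 of Sema4a and 2 for 3 of Sema4f. The real numbers may be multiples of these.

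Neuropilins are the binding subunits for class 3 semaphorins and also bind VEGF. Nrp1 was the most abundant guidance gene, at 33.6 FPKM in KO and 33.8 FPKM in WT. Nrp2 was at 5.70 FPKM in KO and 3.99 FPKM in WT, a log2 ratio of 0.42. Its share of the neuropilin sum was 14.5% in KO and 10.6% in WT. The sum of class 3 semaphorins was 0.978 of the neuropilin sum in KO and 0.894 in WT.

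Plexins are the signalling receptors of the semaphorins, and their sum was 45.3 FPKM in KO and 45.4 FPKM in WT, a ratio of 0.999 that became 1.09 with upper-quartile scaling. Plxnb2 was at 15.1 FPKM in KO and 14.9 FPKM in WT. Plxnd1, an endothelial receptor needed for outflow tract and vessel patterning, was at 10.5 FPKM in KO and 10.9 FPKM in WT. Plxnc1 was at 7.23 FPKM in KO and 6.40 FPKM in WT. These most abundant plexins kept the same order in both libraries.

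Plxna4, a partner of Nrp1 and a receptor of Sema6a, was at 4.09 FPKM in KO and 2.96 FPKM in WT, a log2 ratio of 0.36. Plxnb1, the receptor of Sema4d, was at 3.10 FPKM in KO and 4.06 FPKM in WT, a log2 ratio of -0.30. Plxna4 thus stood above Plxnb1 in KO and below it in WT. The other class A plexins were all slightly lower in KO as deposited: Plxna1 was at 2.53 FPKM in KO and 2.76 FPKM in WT, Plxna2 at 1.65 FPKM in KO and 2.12 FPKM in WT, and Plxna3 at 1.02 FPKM in KO and 1.18 FPKM in WT. Relative to the median of all genes Plxna1 and Plxna3 were at 0.020 and 0.0044, and Plxna2 at -0.12. Plxnb3 had 3 KO reads for 4 WT reads in lowest terms.

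**Figure D2:**
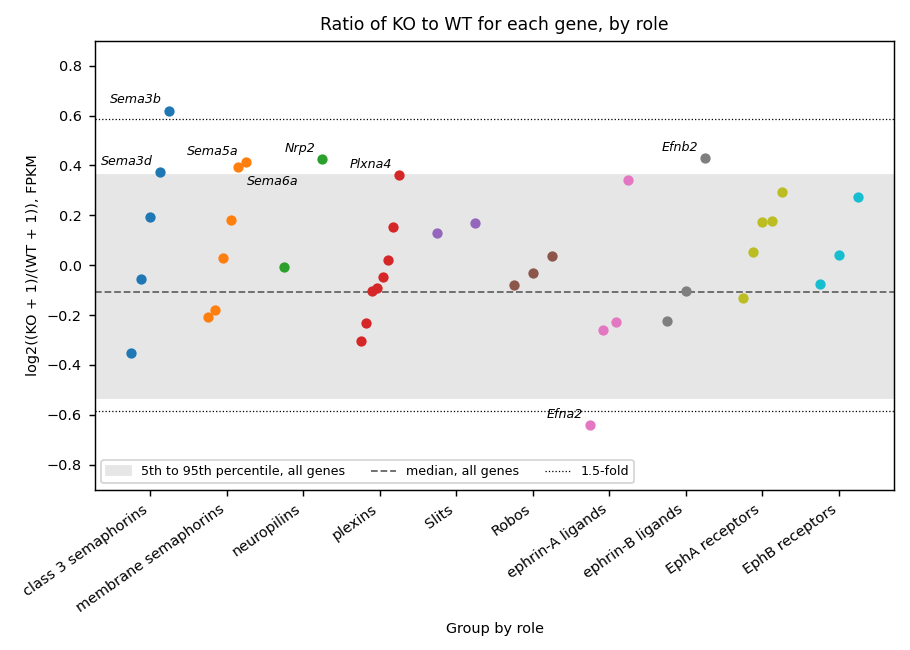
log2((KO + 1)/(WT + 1)) in FPKM for the 41 genes, by role, with the median of all genes (dashed), their 5th to 95th percentile (grey) and the 1.5-fold limits (dotted). Sema3b lies above the upper limit and Efna2 below the lower one, and 6 other genes lie above the grey band but within the limits.

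Slits are secreted repellents. Slit2 was at 12.8 FPKM in KO and 11.7 FPKM in WT, and Slit3, known from diaphragm and heart development, at 2.12 FPKM in KO and 1.77 FPKM in WT. Slit1 had 2 KO reads for each WT read in lowest terms. The Slit sum was 15.0 FPKM in KO and 13.5 FPKM in WT.

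Robos are the Slit receptors, and all 3 measured ones were close to WT, with log2 ratios from -0.079 to 0.038. Robo1 was at 6.84 FPKM in KO and 7.28 FPKM in WT, Robo2 at 2.26 FPKM in KO and 2.17 FPKM in WT, and Robo4, an endothelial family member, at 1.15 FPKM in KO and 1.20 FPKM in WT. Robo3, known from commissural axons, was at 0.0386 FPKM in KO and listed at 0 in WT. The Slit sum was 1.46 times the Robo sum in KO and 1.26 times in WT.

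Ephrin-A ligands are held in the membrane by a lipid anchor, and theirs was the only role whose median lay below that of all genes, at a log2 difference of -0.14. It stayed below in all 9 alternatives run, from -0.19 to -0.065. Median centring cannot change this median, however, and upper-quartile and trimmed-mean scaling moved it little (-0.15 each). At a minimum mean of 5 FPKM it is the value of Efna1 alone. Ephrin-B ligands were below the median of all genes only with a pseudocount of 5 (-0.0014) or no filter (-0.052), and plexins only with no filter (-0.0036). Efna1, known from the cardiac valves of mice, was at 6.89 FPKM in KO and 8.24 FPKM in WT. Efna2 was at 1.46 FPKM in KO and 2.83 FPKM in WT, a plain FPKM ratio of 0.514 and a log2 ratio of -0.64, the lowest of the 41. With the median of all genes brought to 0 that log2 ratio was -0.53, inside the 1.5-fold limit.

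Efna4 was at 1.79 FPKM in KO and 2.35 FPKM in WT. Efna5 went the other way, at 2.46 FPKM in KO and 1.73 FPKM in WT, a log2 ratio of 0.34. After Efna1 the order was therefore Efna5, Efna4, Efna2 in KO and Efna2, Efna4, Efna5 in WT. Efna3 was listed at 0 in both libraries, although its neighbours Efna1 and Efna4 on chromosome 3, with 0 coding genes between, were both measured. The ephrin-A sum was 12.6 FPKM in KO and 15.2 FPKM in WT, a ratio of 0.831 and the lowest of the 10 roles, and 0.909 with upper-quartile scaling. It was 0.360 of the EphA receptor sum in KO and 0.492 in WT.

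Ephrin-B ligands span the membrane. Efnb2, the arterial ligand of Ephb4, was at 13.7 FPKM in KO and 9.89 FPKM in WT, a log2 ratio of 0.43. Efnb3, a midline repellent, was at 12.7 FPKM in KO and 15.0 FPKM in WT, and Efnb1 at 7.35 FPKM in KO and 7.97 FPKM in WT. Efnb2 was the most abundant ephrin in KO, with 40.6% of the ephrin-B sum against 30.1% in WT, while Efnb3 was the most abundant in WT, with 37.6% in KO and 45.6% in WT. The sum itself was 33.7 FPKM in KO and 32.8 FPKM in WT.

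EphA receptors are tyrosine kinases that mainly bind ephrin-A ligands. Epha7 made up about as much as the rest of the class together, at 18.1 FPKM in KO and 14.6 FPKM in WT, a log2 ratio of 0.29. Epha4, which binds ephrins of both classes, was at 6.90 FPKM in KO and 6.01 FPKM in WT, and Epha3, known from the endocardial cushions of mice, at 6.36 FPKM in KO and 7.07 FPKM in WT. Their order differed between the libraries.

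Epha2 was at 2.20 FPKM in KO and 1.83 FPKM in WT. Epha1 was at 1.32 FPKM in KO and 1.24 FPKM in WT. Its exons overlap Zyx on the opposite strand in GENCODE, at 10.8 FPKM in KO and 14.5 FPKM in WT. Whether counting used strand is not given, so the level of Epha1 is uncertain. Other members also have exon overlaps. Plxna4, Plxnb1, Plxna1, Efna4 and Sema4c overlap opposite-strand genes without a value here, and Plxnc1 overlaps the same-strand gene Gm48718, also without a value. Epha5 had 4 KO reads for 5 WT reads in lowest terms, Epha6 and Epha10 had 0.0144 and 0.0117 FPKM in KO and were listed at 0 in WT, and Epha8 was listed at 0 in both. The EphA sum was 35.0 FPKM in KO and 30.8 FPKM in WT.

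EphB receptors mainly bind ephrin-B ligands. Ephb4, the venous partner of Efnb2, was at 15.6 FPKM in KO and 15.1 FPKM in WT and made up 76.6% of the EphB sum in KO and 77.1% in WT. Ephb2 was at 1.83 FPKM in KO and 1.34 FPKM in WT, a log2 ratio of 0.27, and Ephb3 at 2.07 FPKM in KO and 2.23 FPKM in WT. Ephb6, which lacks kinase activity, was at 0.647 FPKM in KO and 0.793 FPKM in WT, and Ephb1 had 15 KO reads for 8 WT reads in lowest terms. The ephrin-B sum was 1.66 times the EphB sum in KO and 1.67 times in WT.

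**Figure D3:**
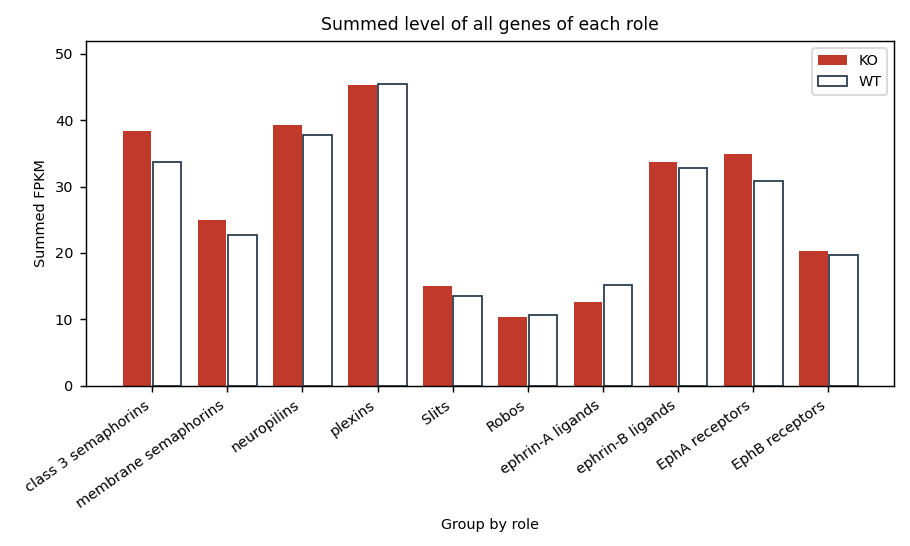
Summed FPKM of all genes of each role, with 1 filled bar for the KO library and 1 open bar for the WT library. The ephrin-A bars differ by a ratio of 0.831 and those of class 3 semaphorins by 1.14, the lowest and the highest of the 10 roles.

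Effectors and other guidance genes were split about the median of all genes, with most semaphorin and plexin effectors and most netrin and related genes below it. Of 19 measured semaphorin and plexin effectors, 5 were above the median of all genes, with the integrin gene Itgb1 at 221 FPKM in KO and 241 FPKM in WT and the collapsin response gene Dpysl3 at 88.5 FPKM in KO and 99.9 FPKM in WT. Of 20 Slit and Robo effectors 10 were above it, with the small GTPase gene Cdc42 at 154 FPKM in KO and 182 FPKM in WT and the ubiquitin ligase adaptor Ndfip1 at 74.8 FPKM in KO and 86.2 FPKM in WT. Of 23 Eph and ephrin effectors 13 were above it, with the adaptors Sdcbp at 56.2 FPKM in KO and 60.7 FPKM in WT and Crk at 40.7 FPKM in KO and 45.6 FPKM in WT.

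Of 8 measured netrin, RGM, Unc5 and Flrt genes 3 were above the median, with Flrt2 at 17.1 FPKM in KO and 17.7 FPKM in WT and the ligand gene Ntn1 at 12.1 FPKM in KO and 14.6 FPKM in WT. Over these 4 lists 31 of 70 genes were above the median of all genes, with a joint median of -0.022 relative to it. Past 1.5-fold, and named after their values were seen, were the heparan sulfate proteoglycan genes Sdc4, at 21.4 FPKM in KO and 12.46 FPKM in WT, and Gpc1, at 11.3 FPKM in KO and 19.3 FPKM in WT, and the neuropilin adaptor gene Gipc1, at 17.0 FPKM in KO and 26.1 FPKM in WT. These were 3 of 70, or 4.29%, against 5.14% of all genes, and past 2-fold there were 0 of 70, against 0.467% of all genes higher and 0.388% lower.

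The log2 ratios of the guidance genes went in part with the GC content of their transcripts, and also with transcript length. Of 15 with a GC content up to 50.3%, the median of all genes, 13 were above the median log2 ratio, with a median of 0.26 relative to it, and of 26 with a higher GC content 18 were above it, with a median of 0.069. Over all genes the shares were 52.8% for the lower and 47.1% for the higher GC content. Spearman's rho between GC content and log2 ratio was -0.41 over the 41 genes and -0.084 over 11268 genes, which share their 2 libraries and runs. With transcript length in place of GC content, rho was 0.33 over the 41 genes and 0.088 over the 11268. Sema3b stood outside the order by GC content, with a GC content of 57.85% and the highest log2 ratio. After the median of all genes of like GC content was subtracted, a step added after seeing the data, 1 gene was at least 1.5-fold higher, 0 were at least 1.5-fold lower, and 5 were above the 95th percentile, with 314 of all genes higher and 172 lower. Bringing the median of all genes to 0 without this adjustment also gave 0 lower. After the adjustment 31 of 41 were above the median of all genes and their own median was 0.15 above it. GC content and length were taken over all annotated transcripts of a gene, short ones included, with a median length of 542 bases for Plxnd1 and 571 bases for Sema4d. Both may therefore differ from those of the transcripts behind the FPKM values. The part of GC content or of length in these values was not tested further.

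**Figure D4:**
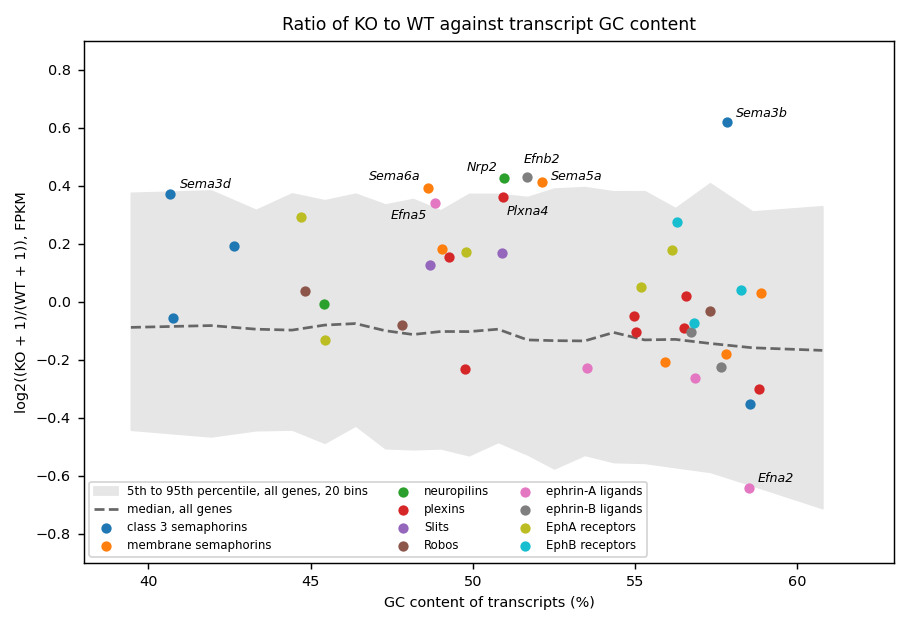
log2((KO + 1)/(WT + 1)) in FPKM of the 41 genes against the GC content of their transcripts in percent, coloured by role, with the median (dashed) and the 5th to 95th percentile (grey) of all genes in 20 bins of GC content. Efna2, with the lowest ratio, and Sema3b, with the highest, both have a high GC content, while the other named genes lie below 53%.

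The promoters of genes near the lowest and highest log2 ratios are shown to place them beside their values. They are the lowest and highest pairs with an entry in the RefSeq promoter table used here, which holds none for Sema3b and Sema3f. Each is 300 bases on GRCm38.p6, from 250 before to 50 after the annotated start, 5′ to 3′ along the gene, with capitals for 4 searched motifs on either strand: the TATA box TATAAA, the GC box GGGCGG, the forkhead core TAAACA and the E-box CACGTG. Efna2 (chr10:80179232-80179531, + strand) and Plxnb1 (chr9:109095186-109095485, + strand) were lower in KO, and Efnb2 (chr8:8661193-8661492, - strand) and Nrp2 (chr1:62703067-62703366, + strand) were higher.
Efna2: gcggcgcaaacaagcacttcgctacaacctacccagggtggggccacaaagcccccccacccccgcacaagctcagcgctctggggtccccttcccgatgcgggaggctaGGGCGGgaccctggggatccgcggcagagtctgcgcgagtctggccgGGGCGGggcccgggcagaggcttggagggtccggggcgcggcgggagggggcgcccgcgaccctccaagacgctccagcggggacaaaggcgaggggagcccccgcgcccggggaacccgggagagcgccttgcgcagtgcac
Plxnb1: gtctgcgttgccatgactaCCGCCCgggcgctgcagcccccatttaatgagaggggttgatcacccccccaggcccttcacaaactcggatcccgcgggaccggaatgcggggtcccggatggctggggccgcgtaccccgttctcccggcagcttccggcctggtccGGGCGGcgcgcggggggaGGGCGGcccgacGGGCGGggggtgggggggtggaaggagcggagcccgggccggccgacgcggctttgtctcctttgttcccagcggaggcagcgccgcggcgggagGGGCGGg
Efnb2: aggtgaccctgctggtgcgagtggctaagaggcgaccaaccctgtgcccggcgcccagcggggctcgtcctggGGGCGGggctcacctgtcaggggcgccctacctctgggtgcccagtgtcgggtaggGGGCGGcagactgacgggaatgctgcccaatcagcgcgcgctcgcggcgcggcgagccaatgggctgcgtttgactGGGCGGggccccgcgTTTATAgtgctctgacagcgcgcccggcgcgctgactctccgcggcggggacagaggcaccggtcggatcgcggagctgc
Nrp2: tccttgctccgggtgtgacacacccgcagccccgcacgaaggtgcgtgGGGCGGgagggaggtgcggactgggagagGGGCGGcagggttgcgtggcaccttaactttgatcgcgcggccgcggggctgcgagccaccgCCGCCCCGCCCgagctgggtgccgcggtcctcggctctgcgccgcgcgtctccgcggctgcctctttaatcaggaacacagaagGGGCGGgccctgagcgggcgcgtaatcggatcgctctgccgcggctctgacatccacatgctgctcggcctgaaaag

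All 4 promoters held GC boxes, and none of the 4 a forkhead core or an E-box. GC boxes numbered 2 in Efna2 and 5 in Plxnb1, against 3 in Efnb2 and 5 in Nrp2, and GC content was 74.7% in Efna2 and Plxnb1, 72.3% in Efnb2 and 70.7% in Nrp2. Efnb2 also held 1 TATA box. Of 45 promoters of 35 of the 41 genes, 68.9% held a GC box, against 64.2% of 10673 promoters of all genes that averaged at least 1 FPKM. A forkhead core was in 2.22% of the 45, against 8.37% of the 10673, a TATA box in 4.44% against 6.94%, and an E-box in 6.67% against 10.3%. The searched motifs do not overlap one another in the 4 promoters, except that a pair of GC boxes shares 1 base in Nrp2.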

How the data were processed

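RNA was extracted from pooled ventricles of each genotype, depleted of ribosomal RNA, amplified by 15 PCR cycles and read for 100 bases, per the labels' protocols. For every gene symbol the authors deposited an FPKM value from each library. Cufflinks 2.0.2, TopHat2 2.0.6, Bowtie2 2.0.2 and the build mm9 are named, without their options, in the submitters' processing notes; the annotation is not given in the sources used here. Per the labels, bases of the WT run, which stopped early, were called by hand and may have been filtered on read length.

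Ratios were computed as log2((KO + 1)/(WT + 1)) for the 11349 genes averaging at least 1 FPKM, and 1.5-fold and 2-fold limits were used as descriptions. With 1 library per genotype no test was made. Symbols, lists and members were chosen with earlier results of these data known. Genes were named if among the 5 highest of their role, past 1.5-fold or listed at 0 in 1 library, and from each effector or guidance list by the 2 highest means or past 2-fold. The other members were named so that each is accounted for, and Sdc4, Gpc1, Gipc1 and genes of the marker lists were named outside this rule. Relative depth came from 2213 genes below 0.3 FPKM, of which 69.3% had a ratio within 0.1% of the step multiplied by a quotient of integers up to 10, and up to 20 for single genes. GC content and length were medians over transcripts of GENCODE M21. Promoters and gene order came from RefSeq, and all were on GRCm38 and not on the build of the values. The fold limits, upper-quartile, trimmed-mean and quantile scaling and the depth step were tried on simulated data without counting noise. The planted changes were larger than those of the guidance genes and only in genes of at least 5 FPKM in WT. The GC adjustment, role medians and motif search were not simulated. Python 3.11.15, numpy 2.4.6, pandas 2.3.3 and matplotlib 3.10.9 were used. Alternatives were pseudocounts of 0.1 and 5, no filter or a minimum mean of 5 FPKM, median centring, upper-quartile, trimmed-mean and quantile scaling and, added after seeing the data, subtraction of the median in 20 bins of GC content.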

Additional observations from a re-analysis of the deposited data

How the results depend on the processing

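No paired analysis was possible because KO and WT were measured in 1 library each, so none could be left out either. Of 210 summary values under the alternatives, leaving out those that a setting cannot change, 185 kept a count within 1.5 times, a median within 0.1 on the log2 scale or a sum ratio within 0.2 on the log2 scale. Members at least 1.5-fold higher numbered 3 at pseudocount 0.1 and 0 with a pseudocount of 5 or a minimum mean of 5 FPKM, where all genes so called numbered 327, 60 and 82. Members at least 1.5-fold lower numbered 2 at pseudocount 0.1 and 0 with a pseudocount of 5, a minimum mean of 5 FPKM, median centring, upper-quartile or trimmed-mean scaling, or the GC adjustment, where all genes so called numbered 696, 111, 266, 192, 199, 201 and 172. Members above the 95th percentile numbered 2 at a minimum mean of 5 FPKM and 4 with quantile normalization, and those below the 5th percentile 2 at pseudocount 0.1 and 0 with a pseudocount of 5 or a minimum mean of 5 FPKM. At that minimum 16 of 18 were above the median of all genes. With quantile normalization 27 of 41 were above it, and their own median was 0.10 relative to it. Without a filter 36 of 58 were above it, with a median of 0.054. Fewer genes enter at a minimum of 5 FPKM, and a larger pseudocount shrinks low genes by construction.

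Medians relative to all genes, without a filter, were 0.013 for class 3 semaphorins, 0.024 for membrane semaphorins and 0.087 for EphA receptors. At a minimum mean of 5 FPKM they were 0.32 for membrane semaphorins, 0.13 for neuropilins and 0.16 for plexins, and with a pseudocount of 5 they were 0.19 for neuropilins, 0.15 for Slits and 0.15 for EphA receptors. Of 287 single log2 ratios under alternatives that can change them, 278 stayed on their side of the 1.5-fold limit, from which most lie far. With a pseudocount of 5, Sema3b was at 0.32 and Efna2 at -0.28. The cause of the other shifts was not tested. Absolute depth is unknown, so counting error could not be given.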
